A study of Mus musculus with 12 samples.

Results

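The genes described here serve sperm-egg fusion and the calcium signal of egg activation. They are *Izumo1r*, *Cd9*, *Cd81*, *Itpr1*, *Trpm7*, *Cacna1h* and *Camk2g*, which were taken by symbol from the table of gene counts, and all 7 of them were found among its 56691 genes. The counts came from 12 RNA-seq libraries of mouse oocytes in 6 groups of 2 libraries. WT and *Alkbh5*−/− (KO) females of 3 weeks gave fully grown oocytes after hormone priming, and these were collected at the germinal vesicle stage (GV, 0 h of culture), at germinal vesicle breakdown (GVBD, 4 h) or at metaphase II (MII, 16 h). All mice were C57BL/6, and the study describes the KO as a deletion of the first exon of *Alkbh5* with its start codon in the whole animal. ALKBH5 removes the methyl group of N6-methyladenosine (m6A) from RNA. Each library held a small pool of oocytes without zona pellucida, and the sources used here differ on how many. The KO GVBD and KO MII groups are named for their culture times. No check of breakdown or of the polar body in the sequenced KO pools was found in these sources. The study reports that most KO oocytes in culture stayed at the GV stage. It also reports far fewer KO than WT oocytes with a polar body later in culture. A difference in stage and a difference in genotype at the same culture time can therefore not be told apart here.

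In the mouse egg, IZUMO1R (JUNO) on the plasma membrane binds IZUMO1 on the sperm head, and the tetraspanins CD9 and CD81 organize the membrane where both gametes meet. After fusion, sperm phospholipase C zeta makes inositol trisphosphate, which opens the receptor ITPR1 on the endoplasmic reticulum and starts a series of calcium oscillations. TRPM7 and the T-type channel CACNA1H let calcium in from outside, which refills the stores, and CAMK2G reads the oscillations and releases the egg from metaphase II arrest.

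The libraries held 28557742 to 40247810 counts, of which 221927 to 838409 came from ERCC molecules, synthetic RNAs added to the lysate. All levels called spike-in scaled counts below are counts divided by the library's ERCC total relative to the mean ERCC total of the 12 libraries. In a pool of oocytes, fewer cells and less RNA per cell cannot be told apart on this scale. The study's methods describe reverse transcription of polyadenylated mRNA. Its assay of poly(A) tails, run once, found shortening during WT maturation and less of it in KO. Loss of an mRNA and loss of its tail can therefore not be told apart in these counts. *Alkbh5* had 5355 to 10181 counts in the WT libraries and 54 to 143 in the KO libraries, so the genotype labels held in each library. Oocyte markers were abundant everywhere, with a summed level of 8410 to 20900 CPM over 9 genes, where CPM scales a count to the total of gene counts in its library and not to the ERCC total. The 12 granulosa and cumulus markers summed to 42.4 to 87.9 CPM, of which *Amh* and *Foxl2* were at 0 in 11 and in 10 libraries, while 7 were above 0 in every library, such as *Cyp19a1* with 577 to 2225 counts and *Nr5a2* with 292 to 480. Blood and endothelium markers differed far more, from 62.8 CPM in a KO GVBD library to 3550 CPM in a WT GV library. The markers of the sperm side summed to 4.64 to 25.2 CPM: *Izumo1* and *Tmem95* were at 0 in 11 libraries and *Plcz1* was at 0 in all 12, whereas *Dcst2* had 124 to 917 counts.

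ALKBH5 acts on m6A, which is commonly placed on the adenine of GGACT, so these letters were counted on the sense strand of the protein-coding transcript with the longest coding sequence of each gene (GENCODE M21, GRCm38). GGACT was present in 6 of the 7 transcripts, against 90.2% of the 19089 protein-coding genes whose 3′ untranslated region has at least 100 bases, and *Cd81* was the member without it. The *Izumo1r* transcript had 4 matches in 1291 bases, or 3.1 per kilobase, and the *Cd9* transcript had 2 in 1228 bases, or 1.63 per kilobase, beside a median of 1.03 per kilobase over those genes. The other members with a match had between 0.422 and 1.09 per kilobase. The matches of *Cd9* and *Izumo1r*, the members with the largest changes below, are shown 5′ to 3′ with GGACT in capitals and with the transcript position of its first base. Both *Cd9* matches and the first 3 of *Izumo1r* lay in the coding sequence and the last of *Izumo1r* lay in the 3′ untranslated region. A match is not evidence of methylation, which was not measured in these files.
*Cd9*, position 246: ttgctattGGACTatggctcc
*Cd9*, position 596: atggcgttGGACTgctgtggc
*Izumo1r*, position 461: tgcactgtGGACTgctgaccc
*Izumo1r*, position 616: gattgtgaGGACTggtggcga
*Izumo1r*, position 676: catggctgGGACTggagtgag
*Izumo1r*, position 1180: ctactataGGACTccggcgct

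The 3′ end was searched as well, because in maturing oocytes the fate of many stored mRNAs depends on sequences near it. In the last 100 bases of the transcript, the polyadenylation signal AATAAA was present in 5 of the 7 members, against 63.8% of the same protein-coding genes. The cytoplasmic polyadenylation letters TTTTAT or TTTTAAT were present in none of the 7, against 17.8%. The 3′ ends used in these oocytes were not measured, and no conclusion is drawn from such counts over 7 genes. The 30-base sites around the signal are shown for the 3 members that changed between WT GV and WT MII, with AATAAA in capitals.
*Izumo1r*: tcctatcatggtaccttcAATAAAaggcta
*Cd9*: gaagacaatttgatacatAATAAAagatta
*Cacna1h*: aggggcaaagcaaagctgAATAAAcactaa

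*Cd9* (ENSMUSG00000030342, chr6:125460266-125494791 on the minus strand) and *Izumo1r* (ENSMUSG00000031933, chr9:14885814-14903949, minus strand) were the most abundant members. Levels of different genes were compared as CPM per kilobase of annotated exon. In WT GV oocytes this per-length level was 160 ± 2.12 (SD, n = 2) for *Cd9* and 58.4 ± 24.9 (SD, n = 2) for *Izumo1r*. *Camk2g* followed at 6.87 ± 0.433 (SD, n = 2) and *Trpm7* at 3.14 ± 0.743 (SD, n = 2). *Itpr1* had 1.35 ± 0.133, *Cd81* 0.958 ± 0.708 and *Cacna1h* 0.928 ± 0.0703 (SD, n = 2 each). The libraries of neighbouring genes in this order did not overlap down to *Itpr1*, and *Cd81* overlapped both *Itpr1* and *Cacna1h*. *Cd9* was thus far above its fellow tetraspanin *Cd81* in oocytes. Ranked by mean count in WT GV among all genes with a count in any library, *Cd9* stood at percentile 98.4, *Izumo1r* at 96.4 and *Cd81* at 65.2. In KO MII the per-length level of *Cd9* was 313 ± 4.47 (SD, n = 2) and that of *Izumo1r* 19.9 ± 6.03 (SD, n = 2), so the gap between these surface genes was wider there than in WT MII, where they had 42.6 ± 1.63 and 16.1 ± 0.672 (SD, n = 2 each).

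**Figure D1:**
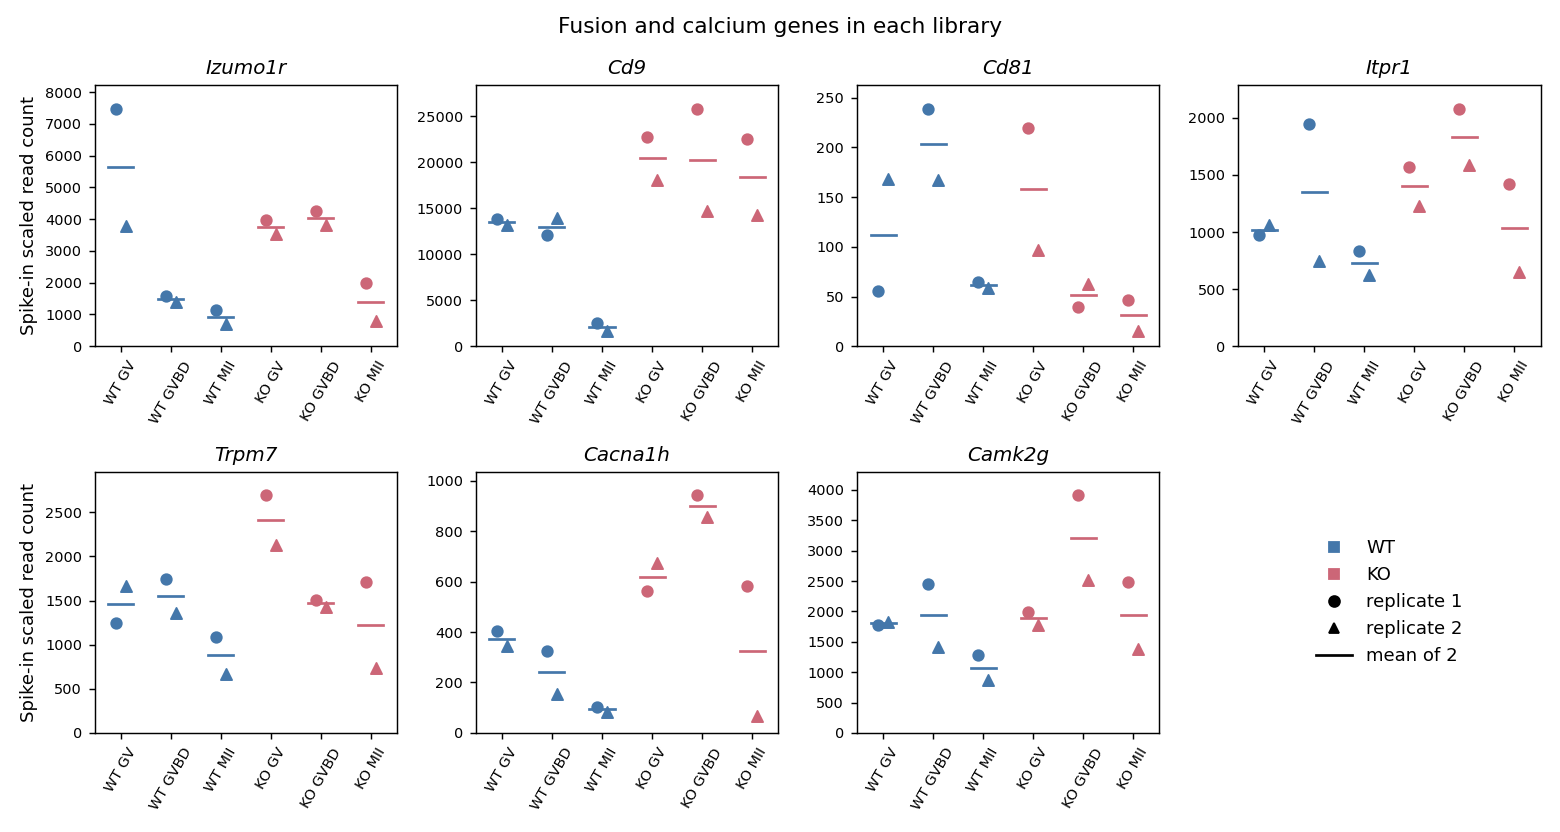
Spike-in scaled read count (vertical axis, linear from 0) of each of the 7 genes in the 12 libraries, by group. Circles are replicate 1, triangles replicate 2 and lines the mean of 2; *Cd9* fell to 2510 and 1700 in WT MII and stood at 22500 and 14300 in KO MII.

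The comparison of KO with WT at MII asked which transcripts differed in oocytes cultured for 16 h without ALKBH5. *Cd9*, the tetraspanin without which mouse eggs rarely fuse with sperm, was the member that passed the test. Its spike-in scaled count was 2510 and 1700 in the WT MII libraries and 22500 and 14300 in the KO MII libraries. The groups lay far apart on this scale, and on the CPM scale both KO libraries were close to each other, with 84.8 and 89.5 CPM in WT and 633 and 646 CPM in KO. The difference was 8.73-fold (log2 fold change 3.13 ± 0.77 SE), with an adjusted p of 0.0109 in edgeR's quasi-likelihood test with Benjamini-Hochberg adjustment over all genes tested. Across all genes 0.803% passed in this comparison (141 of 17566), with a median log2 fold change of 0.30, and 1 of the 7 members passed, with a median of 0.61. The blood and endothelium markers were at 166 and 163 CPM in the WT libraries, against 698 and 96 CPM in KO, and the *Cd9* level in CPM was about as high in both KO libraries. The call was lost on median-of-ratios scaling (adjusted p = 0.0512 in the same test), where 2 of all 17566 genes were called. It was also lost without any one of WT MII replicate 1, WT MII replicate 2 or KO MII replicate 1. The log2 fold changes then ran from 2.76 to 3.43. Fits without either one of the WT MII libraries called fewer of all genes than with every library. The fit without KO MII replicate 1 called more.

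The other 6 members did not pass at MII. *Cacna1h*, which encodes the T-type channel Cav3.2, had 103 and 84.8 spike-in scaled counts in WT, against 584 and 65.9 in KO. One KO library was thus far above WT and the other below it, and the log2 fold change of 1.79 ± 0.98 (SE) had an adjusted p of 0.767 in edgeR's test. *Izumo1r* had 1140 and 687 in the WT libraries, against 1990 and 800 in KO, where the groups overlapped. *Itpr1*, *Trpm7* and *Camk2g* had log2 fold changes of 0.51 ± 0.85, 0.47 ± 0.84 and 0.85 ± 0.83 (SE), and *Cd81* had -0.98 ± 1.1 (SE).

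**Figure D2:**
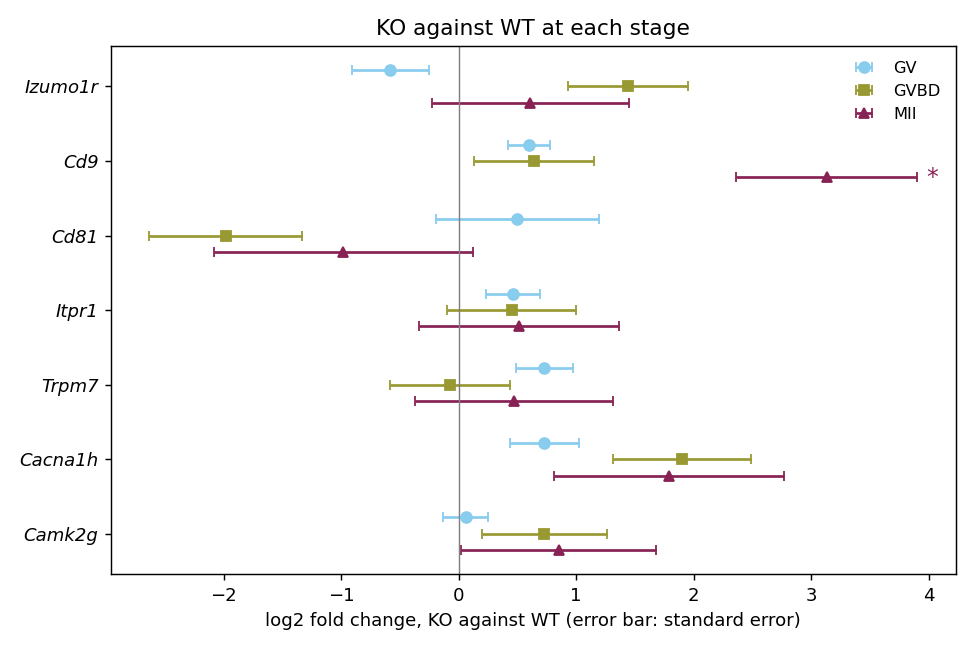
log2 fold change of KO against WT (horizontal axis) for each gene at GV (circles), GVBD (squares) and MII (triangles), with standard errors from edgeR. The asterisk marks the call that passed, *Cd9* at MII with 3.13; its values at GV and GVBD were 0.60 and 0.64.

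The comparison of MII with GV within WT followed the captured maternal mRNA through maturation in culture. *Cd9*, *Izumo1r* and *Cacna1h* fell, and the other 4 members did not pass the test. *Cd9* had 13800 and 13200 spike-in scaled counts in WT GV and 2510 and 1700 in WT MII. *Izumo1r* had 7480 and 3780 in WT GV and 1140 and 687 in WT MII. *Cacna1h* had 405 and 343 in WT GV and 103 and 84.8 in WT MII. In each of these genes every MII library was below every GV library, although the GV libraries of *Izumo1r* lay far from each other. In edgeR's quasi-likelihood test the log2 fold change was -2.68 ± 0.49 (SE) for *Cd9* with an adjusted p of 8.66e-07. It was -2.63 ± 0.50 for *Izumo1r* with an adjusted p of 2.41e-06, and -1.99 ± 0.60 for *Cacna1h* with an adjusted p of 0.00454.

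The whole transcriptome was lower at MII on this scale, with 30.9% of genes called (5821 of 18816, of which 74 were higher and 5747 lower) and a median log2 fold change of -1.06, so the members are best read against that median. *Cd9* and *Izumo1r* lay well beyond it. *Itpr1* (-0.48 ± 0.50, SE), *Trpm7* (-0.72 ± 0.50) and *Camk2g* (-0.75 ± 0.49) lay above it, as did *Cd81* (-0.85 ± 0.74), and all of these were positive under the 2 scalings that centre the libraries on most genes. Under TMM scaling, in which the median over all genes was -0.14 and 1593 genes were called higher and 3053 lower, *Cd9* and *Izumo1r* were still called (-1.75 each) and *Cacna1h* was not (-1.04, adjusted p = 0.0622 in edgeR's test). No member was called without WT GV replicate 1, where the *Izumo1r* log2 fold change was -2.05. Without WT MII replicate 2 only *Cd9* was called, and without WT GV replicate 2 *Cd9* and *Izumo1r* were. Without WT MII replicate 1, the members above were called and so was *Camk2g*, at -1.06. Each of these fits also called fewer of all genes than the fit with every library, so the losses are not particular to the members. *Cacna1h* also missed the threshold with all 12 libraries in one model (adjusted p = 0.0952 in edgeR's test).

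In the KO oocytes *Cd9* was abundant at every stage. Its spike-in scaled count was 22700 and 18100 in KO GV, 25800 and 14700 in KO GVBD and 22500 and 14300 in KO MII, with overlap of the KO stages. Its MII against GV log2 fold change in KO was -0.15 ± 0.51 (SE), with an adjusted p of 0.883 in edgeR's test. *Izumo1r* had 3970 and 3540 in KO GV and 1990 and 800 in KO MII, where every MII library was lower, but its log2 fold change of -1.43 ± 0.65 (SE) had an adjusted p of 0.204. *Cacna1h* had 564 and 672 in KO GV and 584 and 65.9 in KO MII, which overlapped. In KO, 3.28% of genes were called (616 of 18777) with a median log2 fold change of -1.17, and 4626 had an unadjusted p under 0.05. None of the 7 members was called in edgeR's test or with DESeq2, and 1 had an unadjusted p under 0.05, *Cd81* at -2.34 ± 0.99 (SE). One library decided this count. Without KO MII replicate 1, *Izumo1r*, *Cd81*, *Itpr1*, *Trpm7* and *Cacna1h* were called lower, 5 members in all, and *Cd9* was not, with a log2 fold change of -0.52. That fit called 11075 of all 20437 genes.

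The interaction term tested whether the GV to MII change differed between genotypes. For *Cd9* the change was more positive in KO than in WT by 2.53 ± 0.61 (SE) on the log2 scale, with an unadjusted p of 0.00153 and an adjusted p of 0.408 in edgeR's test. In this fit, with ERCC scaling and the filter on low counts, 0% of genes were called (0 of 20807) and 1197 had an unadjusted p under 0.05. The *Cd9* difference passed under TMM scaling (2.63 ± 0.32, SE, adjusted p = 0.0292 in edgeR's test), under median-of-ratios scaling (2.69, adjusted p = 0.0242), without the filter on low counts (2.53, adjusted p = 0.0485) and with DESeq2 (2.53, adjusted p = 0.0105). No other member passed under any of these settings. Over all genes TMM scaling gave 71 calls, median-of-ratios scaling 110, DESeq2 152 and the fit without the filter 346 of 31156. Without KO MII replicate 2 *Cd9* also passed, at 2.82, in a fit that called more of all genes than with every library. *Izumo1r* had an interaction of 1.20 ± 0.78 and *Cacna1h* of 1.06 ± 1.13 (SE).

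**Figure D3:**
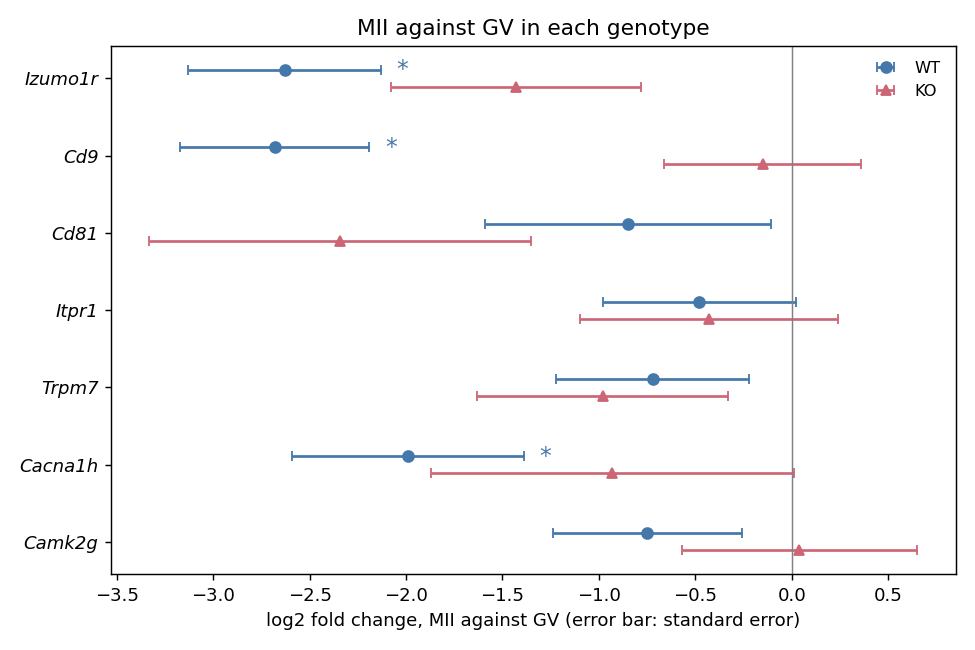
log2 fold change of MII against GV (horizontal axis) for each gene in WT (circles) and KO (triangles), with standard errors from edgeR. Asterisks mark the calls that passed, *Izumo1r*, *Cd9* and *Cacna1h* in WT; *Cd9* stood at -2.68 in WT and at -0.15 in KO.

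The steps from GV to GVBD and from GVBD to MII were also compared in WT. *Cd9* had 12100 and 13900 spike-in scaled counts in WT GVBD, on either side of its GV values, and it then fell by MII with a log2 fold change of -2.63 ± 0.66 (SE) and an adjusted p of 0.000722 in edgeR's test. *Izumo1r* already had 1590 and 1380 in WT GVBD, both below its GV libraries, with a GVBD against GV log2 fold change of -1.93 ± 0.44 (SE) and an adjusted p of 0.259. From GVBD to MII it differed by -0.70 ± 0.67 (SE). In WT MII against GVBD, *Cd9* was 1 of 7 members called against 27.8% of all genes (5339 of 19211), and the call was lost without WT GVBD replicate 1, WT GVBD replicate 2 or WT MII replicate 2. In WT GVBD against GV, 0.0511% of genes were called (10 of 19566) and 1223 had an unadjusted p under 0.05. None of the 7 members was called in edgeR's test there and 1 had an unadjusted p under 0.05, which was *Izumo1r*. DESeq2 called it, and so did the fit without the filter on low counts. Of all genes, DESeq2 called 383 and the fit without the filter 528.

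In KO, the *Izumo1r* values at GVBD were not below those at GV. It had 3970 and 3540 spike-in scaled counts in KO GV and 4260 and 3810 in KO GVBD, where the groups overlapped, with a log2 fold change of 0.10 ± 0.26 (SE). In KO GVBD against GV, 0.22% of genes were called (42 of 19064) and 1459 had an unadjusted p under 0.05. None of the 7 members was called in edgeR's test or with DESeq2, and 3 had an unadjusted p under 0.05, namely *Cd81* (-1.62), *Trpm7* (-0.71) and *Camk2g* (0.77). Without KO GVBD replicate 2, *Camk2g* was called higher, at 1.05, in a fit that called more of all genes than with every library. In KO MII against GVBD, 7.2% of genes were called (1293 of 17966) and 3755 had an unadjusted p under 0.05. None of the 7 was called there in either test and 1 had an unadjusted p under 0.05, *Izumo1r* at -1.53 ± 0.75 (SE). Without KO MII replicate 1, *Izumo1r*, *Itpr1* and *Cacna1h* were called lower in this last comparison, 3 members in all, in a fit that called 6334 of all 19455 genes.

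KO was compared with WT at GVBD to see the difference after 4 h of culture. *Izumo1r* had 1590 and 1380 spike-in scaled counts in WT and 4260 and 3810 in KO, and *Cacna1h* had 326 and 155 in WT and 941 and 855 in KO. In both genes the KO libraries lay well above the WT libraries without overlap. The share of all genes that separate so with 2 libraries per group was not counted. The log2 fold changes were 1.44 ± 0.51 (SE) for *Izumo1r* and 1.9 ± 0.59 (SE) for *Cacna1h*. Their adjusted p-values of 0.154 and 0.0917 in edgeR's test missed the threshold of 0.05, whereas DESeq2 called both and the fit without the filter on low counts called *Cacna1h*. These settings called more of all genes too, 901 of 19462 with DESeq2 and 953 of 29300 without the filter. At GVBD edgeR's test called 2.54% of all genes (494 of 19462), and 2901 of all genes had an unadjusted p under 0.05. None of the 7 members was called in edgeR's test and 3 had an unadjusted p under 0.05, these 2 and *Cd81*. *Itpr1* had 1950 and 743 in WT and 2080 and 1590 in KO, which overlapped, and the KO libraries of *Camk2g* (3910 and 2520) began just above those of WT (2460 and 1410).

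At GV, 0.0977% of genes were called (19 of 19452) and 3475 of all genes had an unadjusted p under 0.05. None of the 7 members was called in edgeR's test or with DESeq2, and 3 had an unadjusted p under 0.05. These were *Cd9* (0.60 ± 0.18, SE), *Trpm7* (0.73 ± 0.24) and *Cacna1h* (0.73 ± 0.29), all higher in KO without overlap, beside a median over all genes of 0.36. *Trpm7*, a channel fused to a kinase that conducts calcium and magnesium, had 1250 and 1660 spike-in scaled counts in WT GV and 2690 and 2130 in KO GV. At GVBD it had 1740 and 1360 in WT and 1510 and 1430 in KO, so the groups overlapped at that stage. *Camk2g* overlapped between genotypes at GV, with 1780 and 1830 in WT and 1990 and 1780 in KO. *Izumo1r* was the member whose difference was negative at GV, at -0.58 ± 0.33 (SE), and its KO values of 3970 and 3540 overlapped those of WT.

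When the 3 stages were fitted together and stage was kept as a term, 1.26% of genes were called (278 of 22004) with a median log2 fold change of 0.29. Of all genes, 4146 had an unadjusted p under 0.05. None of the 7 members was called in edgeR's test and 2 had an unadjusted p under 0.05. *Cacna1h* had a log2 fold change of 1.48 ± 0.44 (SE, adjusted p = 0.106) and *Cd9* of 1.41 ± 0.41 (SE, adjusted p = 0.100), and DESeq2 called both. DESeq2 called 1356 of all 22004 genes in this comparison. Without KO MII replicate 2, *Cacna1h* was called in edgeR's test, at 1.68. That fit called more of all genes than the fit with every library. By stage, the differences at GV, GVBD and MII were 0.60, 0.64 and 3.13 for *Cd9* and 0.73, 1.9 and 1.79 for *Cacna1h*. The comparisons between genotypes and between stages share libraries, so they are not independent of each other.

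*Cd81*, which acts with CD9 in fusion, had the fewest counts of the 7, from 22 to 189 per library. The WT libraries gave spike-in scaled counts of 55.8 and 168 before culture (GV), of 239 and 167 after 4 h (GVBD) and of 64.6 and 58.8 after 16 h (MII). The KO libraries gave 220 and 97.0 before culture, 39.5 and 62.8 after 4 h and 47.0 and 15.8 after 16 h. The WT GVBD libraries and single GV libraries were thus the high ones, and the KO libraries were low from GVBD on. It was lower in KO than in WT at GVBD without overlap, at -1.98 ± 0.65 (SE) on the log2 scale with an adjusted p of 0.115 in edgeR's test. The sum of the 11 blood and endothelium markers moved with *Cd81* between the GVBD groups and between the WT GV libraries. It was 2230 and 1980 CPM in WT GVBD, 62.8 and 104 CPM in KO GVBD, and 111 and 3550 CPM in the WT GV libraries. *Hba-a1* and *Hbb-bs* gave most of the high sums, such as 42818 and 20743 of 75593 counts in WT GVBD replicate 1. *Pecam1* had 1798 and 1847 counts in WT GVBD and 1568 and 2935 in KO GVBD. *Cdh5* had 34 and 20 against 0 and 32. The genotypes overlapped in both of these genes, and the remaining markers were lower in both KO GVBD libraries. The 4 libraries with the highest *Cd81* level, from 4.20 to 5.50 CPM, were among the 5 with the highest marker sum, and the exception was KO GV replicate 2 with 3420 CPM of markers and 2.16 CPM of *Cd81*. At MII the 2 did not run together, with 3.10 CPM of *Cd81* at a marker sum of 163 CPM in WT MII replicate 2. KO MII replicate 1 had 1.32 CPM at 698 CPM. The part of blood or endothelial RNA in the *Cd81* values was not tested. *Cd9* had 325 and 331 CPM in the WT GV libraries, whose marker sums were 111 and 3550 CPM. The part of such RNA in the *Cd9* values was not tested either.

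**Figure D4:**
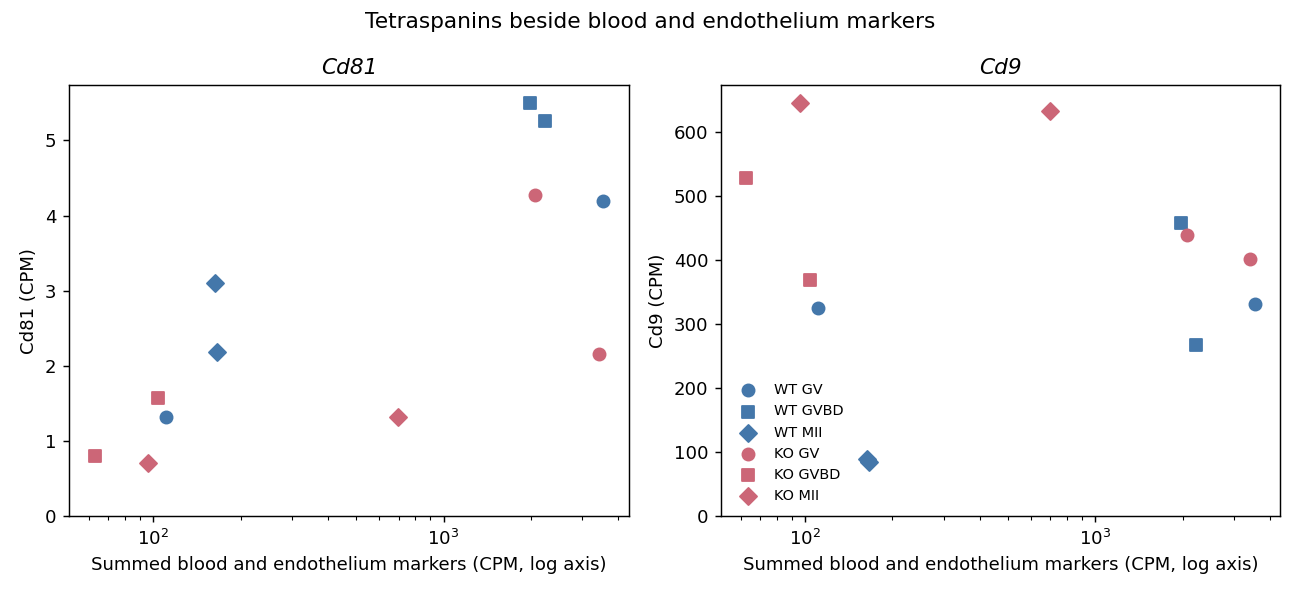
CPM of *Cd81* (left) and *Cd9* (right) on linear vertical axes against the summed CPM of 11 blood and endothelium markers on a log axis, 1 point per library. The highest *Cd81* level, 5.50 CPM, was in a WT GVBD library with a marker sum of 1980 CPM; *Cd9* was 633 and 646 CPM in the KO MII libraries, at marker sums of 698 and 96 CPM.

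*Itpr1* and *Camk2g*, which stand for calcium release and its read-out, were called in none of the 11 comparisons with every library in use. *Itpr1* had 978 and 1060 spike-in scaled counts at GV and 831 and 626 at MII in WT, against 1570 and 1230 at GV and 1420 and 654 at MII in KO. *Camk2g* had 1290 and 864 in the WT libraries of MII, against 2490 and 1380 in those of KO. The KO MII libraries of *Camk2g* were both above those of WT, without a call. On the CPM scale *Camk2g* was 43.9 ± 2.77 in WT GV and 44.5 ± 1.40 in WT MII (SD, n = 2), and 39.0 ± 0.726 in KO GV and 66.3 ± 5.56 in KO MII (SD, n = 2).

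Another 69 genes of fusion and calcium handling, grouped by role, were read from the same fits. In WT MII against GV, 15 of the 61 tested were lower and 0 higher, with a median log2 fold change of -0.89, beside 30.9% and -1.06 over all genes, whereas under TMM scaling 4 were lower and 9 higher. Among egg surface genes and their partners, *Igsf8*, a partner of CD9, fell by 3.21 and *Itga5* fell by 2.61 on the log2 scale. *Orai1*, the store-operated calcium channel, fell by 3.57, and *Ryr1*, a ryanodine receptor, had 52 and 30 counts in WT GV and 0 in both WT MII libraries, at least 27.1-fold lower when 3 counts are set for each library at 0. Among channels of the plasma membrane *Trpm4* (-4.66) and *Trpm3* (-3.78) fell, and among phospholipases *Plcg2* (-1.38). *Ppp3cc*, a catalytic subunit of calcineurin, fell by 3.93, and the kinase *Camk4* fell by 3.15. Of these named calls, *Ryr1*, *Trpm4*, *Trpm3* and *Ppp3cc* passed whichever library was left out. *Itga5* had 20.2 and 195 spike-in scaled counts in WT GV and 24.7 and 10.6 in WT MII, which overlapped, and the GV values of *Igsf8* (19 and 81.8) and *Orai1* (29.7 and 204) were also highest in replicate 2. These 3 were not called without WT GV replicate 2, the library with 3550 CPM of blood and endothelium markers against 111 CPM in replicate 1 and 166 and 163 CPM in WT MII. The part of those markers in the differences was not tested. *Camk4* and *Plcg2* were not called without WT GV replicate 1, nor *Plcg2* without WT GV replicate 2, and *Itga5*, *Orai1* and *Camk4* were not called without either one of the WT MII libraries, nor *Igsf8* without WT MII replicate 2.

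In WT MII against GVBD, 12 of 63 were lower and 1 was higher, beside 27.8% of all genes called and a median of -1.11. The higher one was *Mcu*, the pore of the mitochondrial calcium uniporter, at 1.80 ± 0.65 (SE), which was not called with any one library left out. The lower genes, with their log2 fold changes, included *Itga5* (-2.42), *Atp2a3* (-5.18), *Trpm3* (-3.77), *Trpm2* (-3.54), *Plcg1* (-2.27), *Ppp3cc* (-4.43) and *Camk4* (-3.21), and *Ryr1* was at least 40.5-fold lower. *Ryr1*, *Atp2a3*, *Trpm3* and *Ppp3cc* passed whichever library was left out. *Itga5* had 29.5 and 158 spike-in scaled counts in WT GVBD against 24.7 and 10.6 in WT MII and was not called without WT GVBD replicate 2 or WT MII replicate 2. *Trpm2* was not called without WT GVBD replicate 1, WT GVBD replicate 2 or WT MII replicate 2, *Plcg1* not without replicate 1 of either group, and *Camk4* not without WT GVBD replicate 1 or WT MII replicate 2. The blood and endothelium markers moved with this comparison, from 2230 and 1980 CPM in WT GVBD to 166 and 163 CPM in WT MII, and their part in these differences was not tested. Under TMM scaling 6 were lower and 7 higher. From KO GVBD to KO MII, 3 of 55 were lower, beside 7.2% of all genes: *Orai1* (-4.72), *Trpm4* (-3.74), and *Bok*, which had 16 and 28 counts in KO GVBD and 0 in both KO MII libraries, at least 11.1-fold lower. None of the 3 was called in edgeR's test without KO GVBD replicate 1, KO GVBD replicate 2 or KO MII replicate 2, fits that called 38, 35 and 20 of all genes. Under TMM scaling none of these 55 was called in edgeR's test, and 14 had an unadjusted p under 0.05. Over all genes TMM scaling called 452 of 17966 there, and 4518 had an unadjusted p under 0.05. From KO GV to KO MII, 0 of 57 were called in edgeR's test, 11 had an unadjusted p under 0.05, and DESeq2 called 5 lower. Over all genes, 4626 of 18777 had an unadjusted p under 0.05 and DESeq2 called 3068.

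Between genotypes at GVBD, 2 of the 63 listed genes tested were called, beside 2.54% of all genes, which is no result about the list. *Orai1* had 10 and 48 counts in WT GVBD and 326 and 333 in KO GVBD, with a log2 fold change of 3.98 ± 0.70 (SE) and an adjusted p of 0.00274 in edgeR's test. *Atp2a3*, the SERCA3 calcium pump, had 391 and 371 counts in WT GVBD and 4 and 13 in KO GVBD, with -5.29 ± 0.74 (SE) and an adjusted p of 0.000223. The genotypes did not overlap in either gene. SERCA3 is known from blood cells, and the blood and endothelium sums of the same libraries, 2230 and 1980 CPM against 62.8 and 104 CPM, moved with *Atp2a3*; their part in its difference was not tested. Under TMM scaling neither gene was called, and 29 of all 19462 genes were. Median-of-ratios scaling called 1 of the 63 lower and 37 of all genes. Neither gene was called without WT GVBD replicate 1 or WT GVBD replicate 2, fits that called fewer of all genes than with every library. Both were called without either one of the KO GVBD libraries, fits that called more of all genes. In the other genotype comparisons edgeR called none: 0 of 63 at GV (9 with an unadjusted p under 0.05 and 1 called by DESeq2), 0 of 56 at MII (2 and 0), 0 of 67 over all stages (10 and 3) and 0 of 65 in the interaction (1 and 0). In GVBD against GV, 0 of 63 were called in WT (3 and 0) and 0 of 63 in KO (6 and 1). Over all genes, 3475 of 19452 had an unadjusted p under 0.05 at GV and 1286 of 17566 at MII. That was so for 4146 of 22004 over all stages and 1197 of 20807 in the interaction. In GVBD against GV it was so for 1223 of 19566 in WT and 1459 of 19064 in KO. DESeq2 called 666 of all genes at GV, 1356 over all stages and 232 in KO GVBD against GV.

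The genes whose levels ran most like those of the members over the 12 libraries were found by Pearson correlation of log2 CPM after TMM scaling among 10827 genes. These values are descriptions, since the libraries share their scaling and the members' stage and genotype patterns. *Cd9* was most like *Dppa5a* (r = 0.985) and *Yipf1* (0.975). *Izumo1r* was most like *Mea1* (0.967) and *Spc24* (0.95), and *Cd81* most like *Tspo* (0.951) and *F13a1* (0.948). *Itpr1* was nearest to *Desi2* (0.967) and *Atf1* (0.948), *Trpm7* to *Mgat4c* (0.914) and *Stam* (0.91), *Cacna1h* to *Klhl3* (0.939) and *Tigar* (0.925), and *Camk2g* to *Traip* (0.96) and *Foxred2* (0.942). Among the members themselves the closest pair was *Itpr1* and *Camk2g* (r = 0.80), and *Cd81* and *Camk2g* were the most opposed (r = -0.668). *Cd9* and *Izumo1r* had r = 0.297.

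The remaining members lie at chr7:143052739-143067934 (*Cd81*, plus strand), chr6:108213096-108551109 (*Itpr1*, plus), chr2:126791565-126876230 (*Trpm7*, minus), chr17:25374285-25433783 (*Cacna1h*, minus) and chr14:20734875-20794088 (*Camk2g*, minus) in GRCm38. *Izumo1r* and *Camk2g* overlap no other annotated gene. The other 5 overlap at least 1 gene on the opposite strand, and since the sources differ on whether the libraries marked the strand, reads of such partners cannot be told apart from theirs.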

How the data were processed

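The deposited table holds whole-number read counts per gene, which the authors made with StringTie 1.3.4d after cutadapt 1.9 and HISAT2 2.0.4 on mm10, as the submitters' processing notes give the tools and versions, together with 92 ERCC sequences. The study's reporting summary gives other versions of cutadapt and HISAT2, and which were used is not settled here. Symbols came from a gene name table (52073 of 56691 genes, 91.9%). Counts were tested as deposited with edgeR 4.0.16 (quasi-likelihood, two-sided; R 4.3.3), with library sizes set in proportion to the ERCC totals. Genes were filtered by filterByExpr for the groups compared, and p-values were adjusted by Benjamini-Hochberg over all genes tested. A gene was called at an adjusted p under 0.05 and an absolute log2 fold change of at least 1. DESeq2 1.42.0, TMM and median-of-ratios scaling, no filter, 1 model over the 12 libraries, calls without the fold limit, a block for replicate number, and each library omitted in turn were tried. The per-length level used the union of annotated exons. CPM leaves out ERCC counts; a pseudocount of 0.5 was added before correlations, for genes averaging 50 counts or more. The scripts were tested on simulated data. All 7 genes were named in every comparison. Whether the libraries of 2 groups overlapped is a description of 2 libraries each, and the share of all genes without overlap was not counted. Of the 69 further genes, those called between genotypes were named, and per role up to 2 in each direction between stages. The members and lists were chosen with earlier results of these data known. The study describes the 2 libraries of a group as biologically independent, while the labels name no animal, so p-values measure the spread between these libraries.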

Additional observations from a re-analysis of the deposited data

Results flagged for a closer look

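*Cacna1h* moved in opposite directions between GV and GVBD. In WT both GVBD libraries (326 and 155 spike-in scaled counts) were below both GV libraries (405 and 343), with a log2 fold change of -0.64 ± 0.52 (SE). In KO both GVBD libraries (941 and 855) were above both GV libraries (564 and 672), with 0.54 ± 0.33 (SE). Neither change passed edgeR's test, and the difference between them was not tested. *Cacna1h* was picked by searching the members for libraries that separate in opposite directions in WT and KO. The share of all genes with such a pattern was not counted. How often the pattern arises from the spread between libraries alone is therefore not known here, and no conclusion is drawn from it.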

How the results depend on the processing

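Between genotypes, the count of called members rose at GVBD from 0 to 1 without the low-count filter (*Cacna1h*) and to 2 with DESeq2 (*Izumo1r*, *Cacna1h*), and over all stages from 0 to 2 with either. At MII it went from 1 to 0 on median-of-ratios scaling. The interaction gave 1 (*Cd9*) under TMM or median-of-ratios scaling, without the filter or with DESeq2. Between stages, WT GVBD against GV gave 1 (*Izumo1r*) without the filter or with DESeq2, and WT MII against GVBD gave 2 (*Cd9*, *Cd81*) with DESeq2. Leaving out 1 library gave 0 to 1 called members at MII, 0 to 1 over all stages and in the interaction (each 1 without KO MII replicate 2), 0 to 4 in WT MII against GV, 0 to 5 in KO MII against GV, 0 to 1 in KO GVBD against GV, 0 to 1 in WT MII against GVBD and 0 to 3 in KO MII against GVBD. The cause of these shifts was not tested. A fit that leaves 1 library in a group assumes that it varies like the others. Over all genes and with every library, the number of calls ranged over the alternatives from 0 to 666 between genotypes at GV, from 12 to 953 at GVBD, from 0 to 346 at MII, from 278 to 1356 over all stages and from 0 to 346 in the interaction. Between stages it ranged from 3839 to 5821 in WT MII against GV, from 616 to 3068 in KO MII against GV, from 1 to 528 in WT GVBD against GV, from 0 to 516 in KO GVBD against GV, from 3854 to 6099 in WT MII against GVBD and from 204 to 2443 in KO MII against GVBD. TMM scaling moved the split of higher and lower calls from 11 and 8 to 9 and 11 between genotypes at GV, from 157 and 337 to 2 and 27 between genotypes at GVBD, from 198 and 80 to 253 and 347 over all stages, from 8 and 2 to 3 and 0 in WT GVBD against GV, from 7 and 35 to 5 and 13 in KO GVBD against GV, from 1 and 615 to 224 and 727 in KO MII against GV, and from 131 and 5208 to 1902 and 3014 in WT MII against GVBD.

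Same-numbered libraries share only a number: the correlation of their deviations ran from -0.22 to 0.14. With the replicate block, KO against WT at MII gave 0 called members, WT GVBD against GV gave 1, WT MII against GVBD gave 2, and no other count of called members changed. With the crossed replicate numbers, chosen after seeing the data because the correlation was under -0.1, the count at MII was 0, and it stayed at 0 at GV and in KO MII against GVBD.

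Uncalled changes that turned sign did so mainly on another scaling, where the log2 fold change under TMM and under median-of-ratios scaling became, in order, -0.29 and -0.29 for *Camk2g* in KO against WT at GV. In WT MII against GV it became 0.16 and 0.22 for *Cd81*, 0.47 and 0.52 for *Itpr1*, 0.20 and 0.26 for *Trpm7* and 0.18 and 0.24 for *Camk2g*. In KO MII against GV it became 0.98 and 1 for *Cd9*, 0.61 and 0.63 for *Itpr1* and 0.05 and 0.06 for *Trpm7*, and -0.02 for *Camk2g* with the replicate block. *Cd9* became 0.08 and 0.06 in WT GVBD against GV and 0.10 and 0.10 in KO GVBD against GV. In WT MII against GVBD it became 0.20 and 0.25 for *Izumo1r*, 0.17 and 0.21 for *Itpr1*, 0.11 and 0.16 for *Trpm7* and 0.14 and 0.18 for *Camk2g*. From GVBD to MII in KO it became 0.83 and 0.84 for *Cd9*, 0.04 and 0.05 for *Cd81*, 0.04 and 0.06 for *Itpr1*, 0.57 and 0.58 for *Trpm7* and 0.20 and 0.21 for *Camk2g*. These scalings centre most genes near 0 by construction.

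With 1 library left out, uncalled log2 fold changes that turned sign ranged as follows. In KO against WT at GV, *Cd81* ran from -0.20 to 1.5 and *Camk2g* from -0.02 to 0.14, and at GVBD *Itpr1* from -0.08 to 1.3 and *Trpm7* from -0.24 to 0.12. At MII, *Izumo1r* ran from -0.19 to 1.13, *Itpr1* from -0.16 to 0.96, *Trpm7* from -0.26 to 0.95 and *Cacna1h* from -0.51 to 2.64. In WT MII against GV, *Cd81* ran from -1.44 to 0.15. In KO MII against GV, *Cd9* ran from -0.52 to 0.14, *Itpr1* from -1.10 to 0.02 and *Camk2g* from -0.45 to 0.41. In WT GVBD against GV, *Cd9* ran from -0.15 to 0.05, *Itpr1* from -0.45 to 0.93, *Trpm7* from -0.10 to 0.30 and *Camk2g* from -0.36 to 0.45, and in KO GVBD against GV *Cd9* from -0.47 to 0.34. From GVBD to MII in KO, *Cd9* ran from -0.50 to 0.32 and *Trpm7* from -1 to 0.21. In the interaction, *Itpr1* ran from -0.62 to 0.50, *Trpm7* from -0.99 to 0.22 and *Cacna1h* from -1.23 to 1.91.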
